A study of Caenorhabditis elegans with 2 samples.

Results

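The ubiquitin conjugation and cullin ligase genes described here were the protein-coding genes of the Ensembl WBcel235 annotation whose symbol begins with ubc-, cul- or skr-. They numbered 47 of 19973 protein-coding genes, with 21 in the ubc family, 6 in the cul family and 20 in the skr family. Binding of EFL-1, an E2F-family transcription factor of Caenorhabditis elegans, had been measured by ChIP-seq, the sequencing of DNA pulled down with an antibody to the protein, on intact worms of strain MT10430 at the L1 stage, the first of the larval stages, with the sexes pooled. All larvae carried lin-35(n745), a mutation of the worm's only retinoblastoma-family pocket protein gene, so the values hold for that background alone, and they were set against no wild type. There were 2 biological replicates, numbered 2 and 3 in the labels, in 1 group, each from a biosample of its own. Whole larvae were used, so a weak peak cannot tell binding in few cells from weak binding in many, and a peak list cannot check the genotype or the tissue.

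Ubiquitin is attached to proteins by a chain of enzymes. An E1 enzyme activates it, an E2 conjugating enzyme carries it, and an E3 ligase chooses the substrate, usually for destruction by the proteasome. Cullins are the scaffolds of the largest class of E3 ligases. CUL-1 holds an SKP1-related adaptor, encoded in the worm by the skr genes, which in turn holds an F-box protein that picks the substrate, and these SCF ligases remove cyclins and other regulators as cells cycle. Worms keep a multiplied set of skr genes and of F-box genes, whereas most ubc and cul genes have a recognisable counterpart in other animals. Members were accordingly classed as conserved (23 genes, 16 ubc, 5 cul and 2 skr) or worm-expanded (24 genes, 5 ubc, 1 cul and 18 skr), from textbook knowledge. The classes were set with earlier results of these data known, so the class contrasts below are descriptions only. The least sure classes were those of ubc-6, ubc-15, ubc-21, ubc-22, ubc-26 and skr-2.

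The sequences under 8 of the summits are given first, 4 chosen because they hold an E2F-like pattern and 4 that hold none, with strong and weak peaks in both sets. Among all 17 member peaks 6 held the pattern this close to the summit, so the printed set has more matches than the whole. Each is 101 bases centred on the summit of a peak from the authors' IDR list (IDR sets how far down a ranked list the replicates still agree), read from the WBcel235 assembly in the direction of the named gene. Capitals mark an E2F-like pattern, defined as TTCCCGC or else TTCGCGC or else TTGCCGC or else TTGGCGC on either strand, so GCGCCAA is the last of these read from the other strand. The ubc-7 sequence is chrIII:9631441-9631541 (minus strand), that of ubc-18 is chrIII:7068799-7068899 (minus strand) and that of cul-3 is chrV:177035-177135 (plus strand). The skr-18 sequence is chrIV:795610-795710 (minus strand), that of ubc-6 is chrII:7478812-7478912 (plus strand) and that of cul-4 is chrII:7301821-7301921 (plus strand). Of the weak peaks without a match, the cul-1 sequence is chrIII:10471132-10471232 (plus strand) and that of ubc-19 is chrV:18689834-18689934 (minus strand). The 101 bases of ubc-6, cul-4, cul-1 and ubc-19 have no capitals.
ubc-7: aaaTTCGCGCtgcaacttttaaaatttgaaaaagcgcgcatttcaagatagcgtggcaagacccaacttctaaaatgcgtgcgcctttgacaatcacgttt
ubc-18: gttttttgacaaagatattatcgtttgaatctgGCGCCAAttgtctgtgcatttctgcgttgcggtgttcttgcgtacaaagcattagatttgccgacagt
cul-3: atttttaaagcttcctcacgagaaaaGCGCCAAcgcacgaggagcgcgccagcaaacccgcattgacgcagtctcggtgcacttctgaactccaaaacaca
skr-18: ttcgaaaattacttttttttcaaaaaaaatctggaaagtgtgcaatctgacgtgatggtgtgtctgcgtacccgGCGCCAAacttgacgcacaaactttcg
ubc-6: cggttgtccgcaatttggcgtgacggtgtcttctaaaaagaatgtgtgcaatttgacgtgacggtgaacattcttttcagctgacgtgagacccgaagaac
cul-4: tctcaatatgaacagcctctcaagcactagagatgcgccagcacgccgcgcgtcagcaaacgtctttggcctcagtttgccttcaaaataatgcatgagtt
cul-1: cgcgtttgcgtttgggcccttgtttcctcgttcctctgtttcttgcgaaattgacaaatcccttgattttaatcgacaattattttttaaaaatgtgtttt
ubc-19: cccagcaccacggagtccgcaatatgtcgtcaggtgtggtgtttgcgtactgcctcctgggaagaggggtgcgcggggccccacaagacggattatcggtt

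EFL-1 peaks lay at 16 of the 47 members. A gene was called bound when an IDR summit lay no more than 1000 bp before or 500 bp after an annotated 5' end, and 34% of the members met this rule against 19.6% of all protein-coding genes. Bound were 9 of 21 ubc genes (42.9%), 3 of 6 cul genes (50%) and 4 of 20 skr genes (20%). The skr share was near that of all genes, and the ubc and cul shares were above it. By class, 12 of 23 conserved members (52.2%) and 4 of 24 worm-expanded members (16.7%) were bound. The class contrast and the family contrast overlap, because 18 of the 24 worm-expanded members are skr genes. Within the ubc family 8 of 16 conserved and 1 of 5 worm-expanded genes were bound, a contrast that did not hold under looser rules given below. These shares are descriptions of a fixed set of genes, and no test was made of them.

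**Figure D1:**
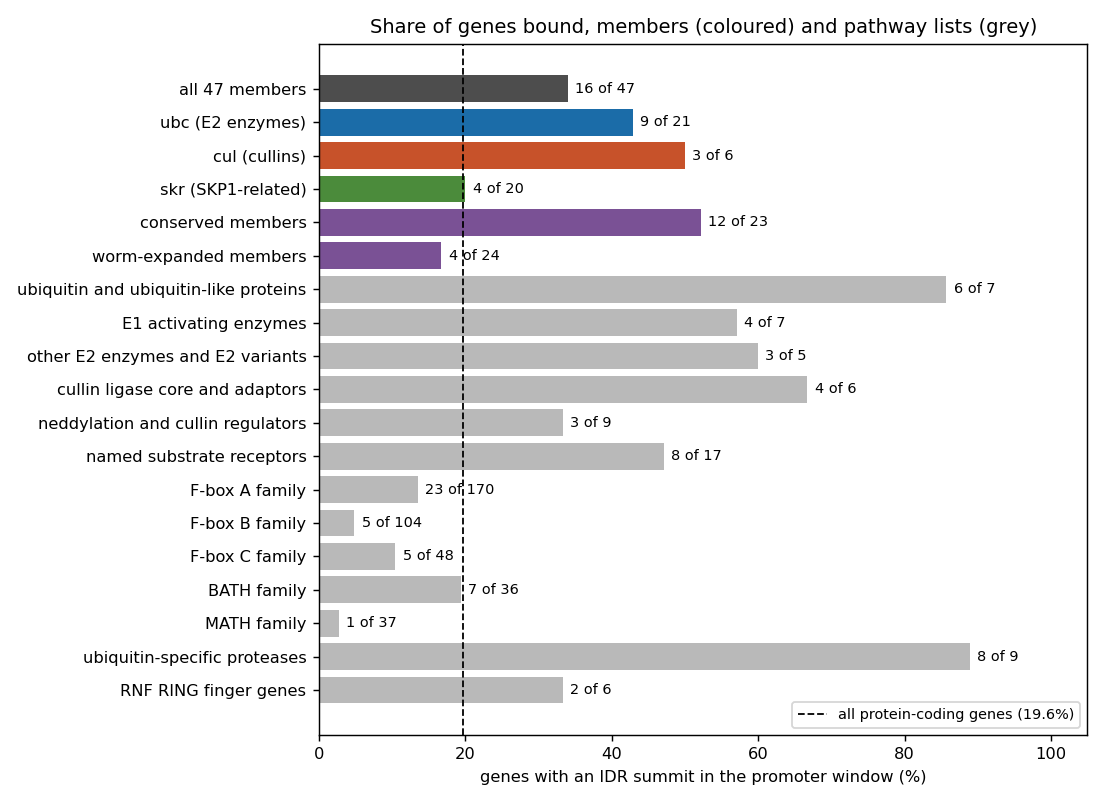
Percentage of genes with an IDR summit in the promoter window, for the 47 members, their families and classes (coloured) and for lists of other ubiquitin pathway genes (grey), with the number bound of the number in each beside its bar. The dashed line is the 19.6% of all protein-coding genes. The ubc, cul and conserved bars pass it, and the skr (20%) and worm-expanded (16.7%) bars end near it.

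Strong peaks lay mostly at conserved members. The IDR list held 4534 peaks, which were the 4534 joint regions of highest signal. They were ranked here by the authors' signal value, which is on the scale of their peak caller and was used only within a list. Over the strongest 2267 of them, 10 members were bound (21.3%) against 11.8% of all genes. These were 9 conserved members (39.1%) and 1 worm-expanded member (4.17%), and by family 7 ubc, 2 cul and 1 skr gene. The median rank of the strongest peak was 1478 over the 16 bound members and 1803 over all 3922 bound genes. It was 1282 over the 12 bound conserved members and 3895 over the 4 bound worm-expanded members.

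The strongest peak of any member lay at ubc-7, whose product is an E2 enzyme of the kind that serves the degradation of misfolded endoplasmic reticulum proteins. It ranked 388 of 4534 (chromosome III, 9631346 to 9631632), with a signal value of 651, where the median IDR peak had 124.8. Replicate 2 gave it rank 378 of 25572 regions and replicate 3 gave it rank 410 of 27203. The summit lay 324 bp upstream of the gene's annotated 5' end, between genes, and no other gene's window held it. At ubc-18, an E2 enzyme gene that works with RING-between-RING ligases, the peak ranked 443 (chromosome III, 7068719 to 7068983, signal value 587.4), with ranks 414 and 511 in replicates 2 and 3. Its summit was 279 bp upstream of ubc-18 and at -214 bp from R01H2.8 on the other strand, so position does not settle which gene the peak belongs to.

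Next came ubc-25 and ubc-3. The peak at ubc-25, an E2 gene of the UBE2Q type, ranked 594 (chromosome I, 10562546 to 10562821, signal value 469.6), with ranks 624 and 556 in replicates 2 and 3. The peak at ubc-3, the worm's CDC34-type E2 that extends chains on SCF substrates, ranked 608 (chromosome I, 1697937 to 1698160, signal value 457.3), with ranks 693 and 528. Both summits were intergenic, at -278 bp from ubc-25 and -311 bp from ubc-3, and neither fell in another gene's window. The ubc-3 window held repeated sequence, with 15.4% of its 36-base words found elsewhere on the same strand of the genome. This was the highest value of any member, with copies on the other strand not counted.

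Of the members, ubc-12 and ubc-9 encode E2 enzymes for ubiquitin-like proteins, and both were bound. The product of ubc-12 carries NEDD8, the small protein that activates cullins, and the gene had a peak of rank 1113 (signal value 265.7), with ranks 1435 and 875 in replicates 2 and 3. That summit was 282 bp upstream of ubc-12 but at -17 bp from rbm-3.2 on the other strand. The product of ubc-9 carries SUMO, and the gene had a peak of rank 1334 (chromosome IV, 4650700 to 4650897, signal value 224.9), with ranks 1298 and 1429 and no other gene in reach. At ubc-6, which encodes an E2 enzyme anchored in the endoplasmic reticulum membrane, there were 2 IDR peaks, both shared with aka-1 on the other strand. The stronger one ranked 1230 (signal value 242.4), its summit at -325 bp from either gene, and replicates 2 and 3 gave it ranks 1273 and 1209. The weaker one ranked 3837 (signal value 60.47) at -120 bp from ubc-6, and the replicates placed it far apart, at 8443 and 2802.

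The remaining bound ubc genes had peaks near the bottom of the list. The peak of ubc-20, an E2 gene of the UBE2K type, ranked 3998 (signal value 56.71), at 5461 and 2958 in replicates 2 and 3, and mxl-2 on the other strand shared it at -521 bp. The peak of ubc-19, the only bound worm-expanded ubc gene, ranked 4400 (signal value 48.75), at 4849 and 4092 in the replicates, and its summit was nearer to Y69H2.7 (-105 bp) than to ubc-19 (-122 bp). The weakest peak of the whole IDR list had a signal value of 46.3.

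Of the cullin genes, cul-4, cul-3 and cul-1 were bound. CUL-4 forms the ligase that limits replication licensing, and its gene had a peak of rank 1346 (chromosome II, 7301777 to 7301970, signal value 222.6) at -230 bp, with ranks 1380 and 1268 in replicates 2 and 3. CUL-3 works with BTB proteins, and its peak ranked 1610 (chromosome V, 177029 to 177152, signal value 187) at -332 bp, with ranks 1811 and 1465. None of the 3 cullin peaks lay in the window of another gene. The peak at cul-1, the SCF scaffold gene, was the weakest of them, at rank 3629 (chromosome III, 10471024 to 10471339, signal value 65.66) and -55 bp. Here the replicates differed most of all bound members, with rank 2871 in replicate 2 and rank 11747 in replicate 3, where the signal values were 56.44 and 9.02.

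At the other cullin genes no IDR summit lay in the window. The joint list, from which the authors took the IDR list and which also holds background regions, had 1 weak region each at cul-2 and cul-6. That of cul-2, the scaffold of elongin-type ligases, ranked 5577 of 21875 (signal value 34.59) at +119 bp. That of cul-6, a CUL-1 paralogue of worms, ranked 6276 (signal value 29.65) at -146 bp. At cul-5 none of the 4 lists had a region in the window, and the nearest IDR summit lay just beyond it, 1121 bp upstream.

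**Figure D2:**
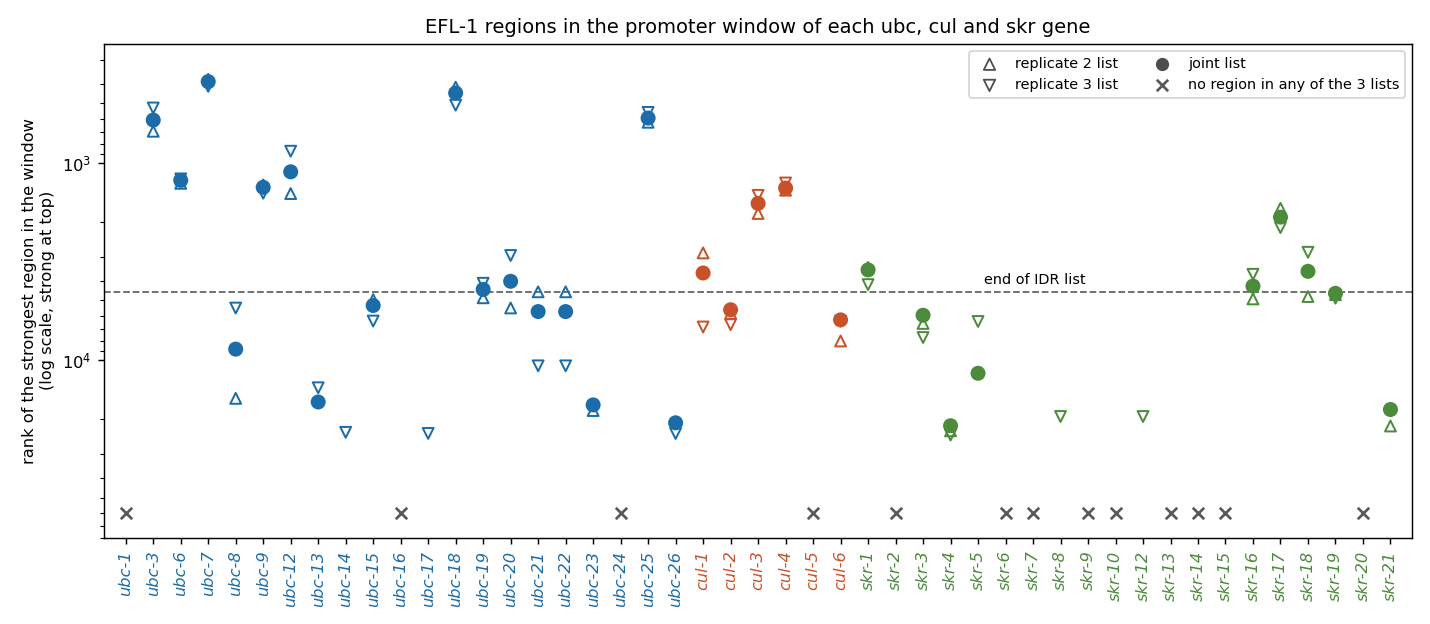
Rank of the strongest region whose summit lay in the promoter window of each of the 47 genes, in the joint list (filled circles) and in the lists of replicates 2 and 3 (open triangles), on a log axis with strong regions at the top. The dashed line marks the end of the IDR list at rank 4534, and crosses mark the 13 genes with no region in any of these 3 lists, 9 of them skr genes. In replicate 3 the strongest region at cul-1 was not the one under its IDR peak, and it ranked 6820.

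In the skr family the bound genes were skr-1, skr-16, skr-17 and skr-18. Only skr-17 had a peak among the strongest 2267, at rank 1890 (chromosome II, 7783709 to 7783841, signal value 156.8), with ranks 1705 and 2137 in replicates 2 and 3. Its summit was the only one of the members' summits downstream of a 5' end, at +237 bp and inside an annotated 5' UTR of skr-17. The conserved pair skr-1 and skr-2, which encode the closest relatives of SKP1, stand in tandem with 912 bp between them. An IDR peak lay in that gap at -264 bp from skr-1, at rank 3500 (signal value 69.46) and with ranks 3400 and 4157 in the replicates. The window of skr-2 held no region in any list. The peaks of skr-18 (rank 3560, signal value 67.5, ranks 4778 and 2849 in replicates 2 and 3) and skr-16 (rank 4230, signal value 51.85, ranks 4913 and 3685) were weak, at -227 and -262 bp.

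Many skr genes had no region at all. Of the 20 skr genes 11 had no joint region in the window and 9 no region in any list. A joint region was present at 9 of the 20 (45%), against 42% of all genes, so its absence was no trait of the family. Absence from every list was not counted over all genes. On chromosome IV skr-13, skr-9, skr-8 and skr-12 lie side by side between 17162097 and 17167792. The only region with its summit in their windows was 1 of replicate 3, at rank 19410 (signal value 6.809) between skr-8 and skr-12. The divergent pair skr-7 and skr-14 on chromosome V had no region in any list, as did skr-6, skr-10, skr-15 and skr-20. The nearest IDR summit was 35946 to 40605 bp from the 4 genes of the chromosome IV cluster and 183010 bp from skr-6. Of the 36-base words in the windows of the chromosome IV cluster, 0.409% to 8.94% were found elsewhere on the same strand of the genome. The share was 0.409% in skr-14 and 1.64% in skr-7. Copies on the other strand were not counted, so these shares can be too low. The part of such repeats in the absence of regions was not tested. By the same count, the windows of the 31 unbound members had a median of 0.409% repeated words and those of the 16 bound members 0%. The only members over 10% by this count were ubc-3 and ubc-6.

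skr-3, skr-4 and skr-5, whose products partner with CUL-6 in worms, were not bound either. The joint list had regions at rank 5945 for skr-3 (signal value 31.84, -513 bp), rank 11714 for skr-5 (16.9, -101 bp) and rank 21616 for skr-4 (11.44, +497 bp). The last 2 had -log10 q values of 0.415 and 0.0212, the authors' measure of confidence in a region. On the X chromosome skr-19, skr-20 and skr-21 form a tandem group. The region at -620 bp from skr-19 ranked 4602 of the joint list, just outside the IDR list, with a signal value of 45.34 and ranks of 4672 and 4869 in replicates 2 and 3. Just inside the list were ubc-19 and skr-16. At skr-21 the joint region ranked 17886, and at skr-20 there was none.

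The unbound ubc genes included several of the best conserved. At ubc-1, the RAD6-type E2 gene, no list had a region and the nearest IDR summit was 9699 bp away. The same held for ubc-16 (17819 bp) and ubc-24 (23457 bp). At ubc-13, whose product builds signalling chains with the E2 variant UEV-1, the joint region ranked 16380 (signal value 13.6). At ubc-8 it ranked 8833 (20.98), with an IDR summit 1516 bp upstream and so outside the window, at ubc-23 it ranked 16950 (13.33) and at ubc-26 it ranked 20888 (11.69). For ubc-14 and ubc-17 only replicate 3 had a region, at ranks 23347 and 23648. Stronger regions below the IDR list lay at ubc-15 (rank 5306, signal value 37.31, -317 bp) and between the divergent neighbours ubc-21 and ubc-22 (rank 5696, signal value 33.61). At this shared region the replicates stood apart, with rank 4522 in replicate 2 and rank 10737 in replicate 3.

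Counting every joint region, 30 of the 47 members (63.8%) had one in the window, against 42% of all genes. By class these were 17 of 23 conserved members (73.9%) and 13 of 24 worm-expanded members (54.2%). Within the ubc family they were 12 of 16 conserved genes (75%) and 4 of 5 worm-expanded genes (80%). Of the 14 unbound members with a joint region, 7 had one with a -log10 q value over 2, namely cul-2, cul-6, skr-3, skr-19, ubc-15, ubc-21 and ubc-22. With that threshold in place of the IDR list, 23 of the 47 members (48.9%) were bound against 24% of all genes. These were 14 conserved members (60.9%) and 9 worm-expanded members (37.5%). The worm-expanded share was thus above that of all genes under this rule. Under the IDR list it was 4 of 24 (16.7%), near the 19.6% of all genes. The skr count was 6 of 20 (30%). Within the ubc family 9 of 16 conserved genes (56.2%) and 3 of 5 worm-expanded genes (60%) were bound under this rule. Since every IDR peak had a value of 3.99, that measure could not order the bound members.

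**Figure D3:**
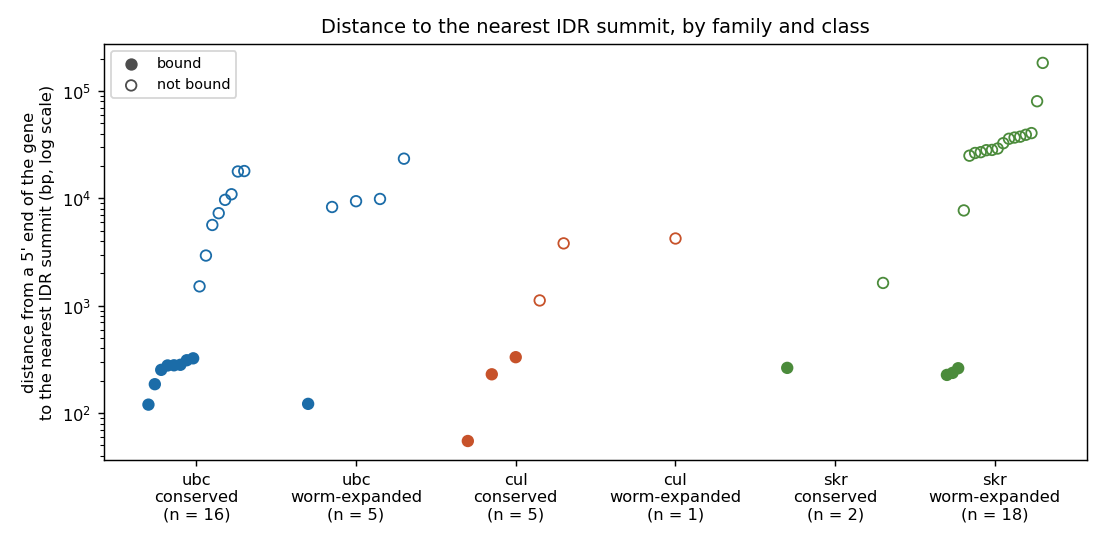
Distance in bp, on a log axis, from an annotated 5' end of each member to the nearest IDR summit on its chromosome, by family and class, with filled points for bound and open points for unbound genes. The bound genes sit between 55 and 332 bp, and the unbound worm-expanded skr genes between 7729 and 183010 bp.

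Among unbound members the distance to the nearest IDR summit also differed by class. Its median was 5658 bp over the 11 unbound conserved members (range 1121 to 17986) and 28220 bp over the 20 unbound worm-expanded members (range 4252 to 183010), and these ranges overlap. Clustered genes share a nearest summit, as do skr-8, skr-9, skr-12 and skr-13, and likewise skr-19, skr-20 and skr-21. These distances are therefore not separate observations, and none were taken over all unbound genes. By chromosome, bound members were 4 of 7 on I, 3 of 7 on II, 4 of 5 on III, 3 of 12 on IV, 2 of 9 on V and 0 of 7 on X, a count of 0 that by 3 counts allows up to 42.9%. Over all protein-coding genes the shares bound were 28% on I, 19.7% on II, 30.4% on III, 20.1% on IV, 12.9% on V and 12.1% on X. Of the 7 members on X, 6 were worm-expanded. The part of chromosome in the class contrast was not tested.

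Nearly all summits lay upstream of the gene. For 15 of the 16 bound members (93.8%) the strongest summit was upstream of the 5' end, as it was for 93.1% of all bound genes. The median position was -263 bp over the members and -215 bp over all bound genes. By family it was -279 bp over 9 ubc genes, -230 bp over 3 cul genes and -244.5 bp over 4 skr genes. All of the upstream summits lay between -332 and -55 bp. Within 300 bp of a 5' end, 13 members were bound (27.7%) against 12.9% of all genes, with cul-3, ubc-3 and ubc-7 falling just outside at -332, -311 and -324 bp. Many annotated 5' ends of worm genes mark where a leader is spliced on, and transcription can begin further upstream.

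**Figure D4:**
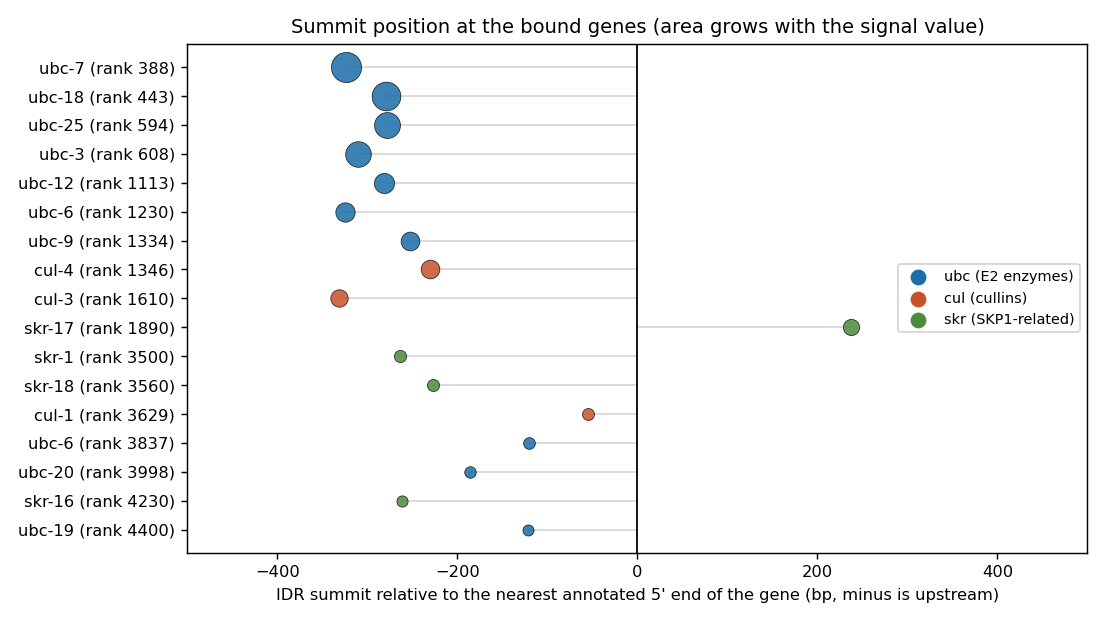
Position of each IDR summit in the members' windows relative to the nearest annotated 5' end of the gene, in bp with minus for upstream, ordered by IDR rank from strong (top) to weak, with point area growing with the signal value and colour for the family. All summits but that of skr-17 at +237 bp lie upstream, and the weak end of the list holds the peaks of skr-16, ubc-20 and ubc-19.

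Of the 16 bound members 5 shared the strongest peak with a gene on the other strand, all of them ubc genes. With each peak given only to the nearest of the genes in whose windows it lay, 13 members were bound (27.7%) against 14.7% of all genes, and ubc-12, ubc-18 and ubc-19 dropped out. The cul and skr counts did not change under this rule, since none of their peaks was shared.

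The replicates ranked the members' peaks much as they ranked all IDR peaks. All 17 distinct peaks in the members' windows overlapped a region in both replicates, as did 4525 of all 4534 IDR peaks, in lists that reach down to background. With only the top regions of each replicate counted, 11 of the 16 bound members had their strongest peak in both. That count was not made over all IDR peaks. The worse of the replicate ranks was a median of 1.24 times the better one, against 1.17 times over the 4525 IDR peaks found in both, and at most 4.09 times, at cul-1. The Spearman correlation of the ranks was 0.855 over the 17 peaks and 0.909 over the 4525. These correlations are across peaks that share the same libraries, and the IDR list is the top of the joint list, so they are descriptions only. After cul-1, which replicate 2 ranked higher, the peaks with the most unequal ranks were the second one of ubc-6, ubc-20, skr-18 and ubc-12, all ranked higher in replicate 3.

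**Figure D5:**
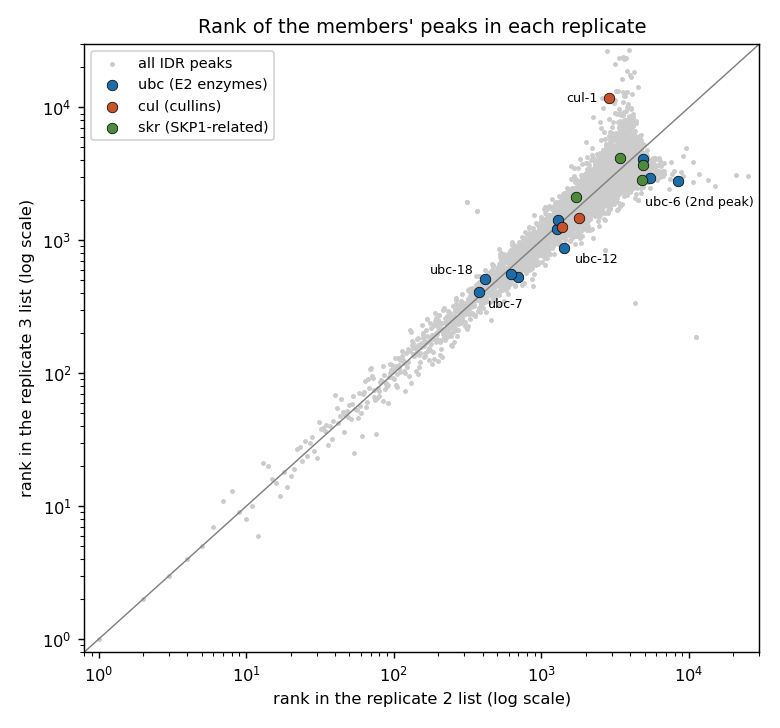
Rank of each member peak in the list of replicate 2 (x axis) and of replicate 3 (y axis), both log axes, over all 4525 IDR peaks found in both (grey). Of the member peaks, those of ubc-7 and ubc-18 are the strongest and lie near the diagonal, and cul-1 stands above it, with rank 2871 in replicate 2 and 11747 in replicate 3.

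E2F-like patterns within 100 bp of the summit were found in 8 of the 17 member peaks (47.1%, 95% Wilson interval 26.2 to 69, for counting error only), against 18.7% of all 4534 IDR peaks. By rule every member peak lay in a gene's window, whereas only 3120 of the 4534 IDR peaks did. Shares among those 3120 were not counted. Comparisons with all IDR peaks here therefore cannot tell membership from location in a gene's window. The member peaks with a match were those of ubc-7, ubc-9, ubc-12, ubc-18, cul-3, skr-1, skr-17 and skr-18. They included both of the strongest, and 6 of the 10 member peaks among the strongest 2267, where 22.9% of all IDR peaks had a match. Within 50 bp the share was 35.3% for the members and 13.4% for all IDR peaks. As a wider background, 6.87% of windows of the same length centred 200 bp upstream of the first 5' end of each protein-coding gene held the pattern. In those upstream windows 5 of the 16 bound members and 0 of the 31 unbound members had a match. The 5 were ubc-9, ubc-12, ubc-18, cul-3 and skr-18, all among the 8 above. The upstream and summit windows share bases at many bound members, so this is no separate observation. Whether 0 of 31 differs from the 6.87% of all genes was not tested. The CHR-like patterns TTCGAA and TTTGAA, of the kind that the LIN-54 subunit of the DREAM complex binds, were found on either strand in 10 of the 17 member peaks (58.8%) and in 44.7% of all IDR peaks. They were in 56.4% of the windows centred 200 bp upstream of all genes. Summit windows of the members had a median GC content of 40.8%, and those of all IDR peaks 42.3%. The windows centred 200 bp upstream of all genes had a median of 33.8%, so they were not a background matched in base composition. The part of GC content in the pattern shares was not tested.

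Other genes of the pathway stood beside the members as follows, with 19.6% of all genes bound under the same rule. Of 7 genes for ubiquitin and ubiquitin-like proteins 6 were bound, led by ubq-2 (rank 393, shared with frg-1) and ubl-1 (rank 471). Of 7 E1 genes 4 were bound, led by rfl-1 (rank 1044, shared with col-8), which encodes a subunit of the NEDD8 activating enzyme, and uba-5 (rank 1954, shared with clec-53). Among other E2 genes and E2 variants, 3 of 5 were bound. Of these let-70, an E2 gene without a ubc symbol, had rank 347, above every member, but at -767 bp and shared with klc-1, and uev-1 had rank 1136 (shared with hinf-1 and F39B2.3).

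Of the subunits that cullins hold, 4 of 6 were bound, with the elongin B gene elb-1 at rank 79 (shared with Y41C4A.9 and Y41C4A.11) and the RING subunit gene rbx-2 at rank 1499 (shared with ncbp-1). Of 9 neddylation and cullin regulators 3 were bound, led by dcn-1 (rank 890, shared with evl-14), which encodes a cullin NEDD8 ligase, and csn-1 (rank 1442, shared with phf-14) of the COP9 signalosome. Of 17 named substrate receptor genes 8 were bound, led by the F-box genes lin-23 (rank 458, at -939 bp) and sel-10 (rank 1144). The multiplied F-box, bath and math families had shares at or below the 19.6% of all genes. Bound were 23 of 170 fbxa genes (13.5%), 5 of 104 fbxb genes (4.81%), 5 of 48 fbxc genes (10.4%), 7 of 36 bath genes (19.4%) and 1 of 37 math genes (2.7%). Of the enzymes that remove ubiquitin, 8 of 9 usp genes were bound, and of rnf genes 2 of 6. Many of these peaks were shared with a neighbour, among them 5 of the 8 at usp genes, both at rnf genes and 6 of the 7 at bath genes. With each peak given to the nearest gene only, where 14.7% of all genes were bound, the counts were 5 for usp, 0 for rnf, 3 for bath, 0 for math, 3 for fbxb and 3 for fbxc. Within 300 bp, where 12.9% of all genes were bound, they were 4 for usp, 1 for rnf, 4 for bath, 0 for math, 3 for fbxb and 3 for fbxc, and 3 for ubiquitin and ubiquitin-like proteins.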

How the data were processed

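The deposited data were peak lists in narrowPeak form, of which the 4 on ce11 were used. The README texts deposited with them give the origin of each: a replicate's list was made from that replicate's alignments, the joint list from the alignments of both, and the IDR list by thresholding the joint one. All used the same control. The aligner is not given in the sources used here, nor the caller or the IDR threshold, and depth is unknown. Signal values were deposited by the authors on a scale that is not stated, and peaks were ranked on them within each list. The -log10 q values were also deposited by the authors.

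Summits were placed from the deposited offsets and compared with 29314 5' ends of protein-coding transcripts (Ensembl release 115, WBcel235), whose chromosome lengths held every ce11 region. Sequence came from the RefSeq assembly of that build. A peak was matched to the replicate region that overlapped it most, by at least 1 bp. The assignment was tested on simulated data with planted summits. All values are counts, ranks and positions, with no test. Python 3.11.15, pandas 2.3.3, NumPy 2.4.6, SciPy 1.17.1 and Matplotlib 3.10.9 were used.

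Members, classes, lists and patterns were chosen with earlier results of these data known. All members were accounted for. In lists of named pathway genes, the 2 bound genes with the strongest peaks were named. The symbol csn-8 matched no gene. The alternatives were a narrower window, nearest genes only, the stronger IDR peaks, a -log10 q threshold in place of IDR, whole peaks in place of summits, the first 5' end only, each replicate alone, members of less sure class left out, and stricter rules for overlap and pattern search. The 4 lists on ce10 were not used.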

Additional observations from a re-analysis of the deposited data

How the results depend on the processing

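Of the counts of bound members, most stayed within 1.5 times of those reported under every alternative tried. The exceptions were these. Among the strongest 2267 IDR peaks 10 members were bound in all, 1 skr gene and 1 worm-expanded gene. With joint regions of a -log10 q value over 2 in place of the IDR list, 5 cul genes and 9 worm-expanded members were bound, so both counts depend on where the list ends. The worm-expanded share was then 37.5% against 24% of all genes, where under the IDR list it was 16.7%, near the 19.6% of all genes. With the top 4534 regions of 1 replicate, the skr count ranged from 2 of 20 (10%) without replicate 3 to 4 of 20 (20%) without replicate 2. The shares of all genes were 19.6% without replicate 3 and 19.4% without replicate 2. Without replicate 3, skr-16, skr-18, ubc-19 and ubc-20 dropped out and ubc-21 and ubc-22 came in, and without replicate 2 cul-1 alone dropped out. The count over all members was 14 of 47 (29.8%) without replicate 3 and 15 of 47 (31.9%) without replicate 2, against those same shares of all genes. The cause of these shifts was not tested. More conserved than worm-expanded members were bound under each alternative listed in the methods, at 9 to 14 against 1 to 9. With any joint region counted, they were 17 against 13, and without the genes whose class was less sure, 11 against 4. Within the ubc family the share of conserved genes was not always the higher one. With the -log10 q threshold it was 9 of 16 (56.2%), against 3 of 5 worm-expanded genes (60%). No paired analysis was possible because there was 1 group and no test. Read depth was unknown, so a gene with no region was not detectably bound in these lists and may still be bound.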

Other observations

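Words noticed while reading the printed sequences were counted afterwards, so these counts are descriptions only. The set of all IDR peaks again includes peaks outside any gene's window, and the member peaks do not. The word TGACGTGA, read on both strands up to 100 bp from each summit, was in the peaks of ubc-6 and skr-18, which makes 2 of the 17 member peaks (11.8%), and in 46 of all 4534 IDR peaks (1.01%). The word TCTGCG was in 5 of the 17 member peaks (29.4%), those of ubc-3, ubc-18, cul-4, skr-1 and skr-18, and in 26.8% of all IDR peaks.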
